A study of Mus musculus with 6 samples.

Results

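The 10 genes described here are C1qa, C1qb, C1qc, Vcam1, Mrc1, Csf1r, Cd68, Slc40a1, Cd5l and Adgre1, which tissue macrophages are known for, measured in separated regulatory T cells (Tregs). They were chosen by name, with their values in these arrays already known. Every probe set that the array annotation assigns to 1 of these symbols alone was kept, which gave 17 of the 22626 tested probe sets and 10 of the 12393 genes with a symbol. Because the choice rested on the contrast between the genotypes, all values of these genes are given as a description, with standard errors. Where one of them is said to be called, it passed the rule run over all genes, and this is no test of the gene.

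The arrays with the deletion held RNA of CD4+CD25+ Tregs from fl-HDAC11/Foxp3cre mice, here HDAC11−/−, in which Cre driven from the Foxp3 locus deletes a loxP-flanked Hdac11 gene in Foxp3-expressing cells. These were set against the same cells of wild type C57BL6 mice, here WT, with 3 Affymetrix Mouse430A arrays per genotype. The WT labels name no Cre allele, so the Cre allele and the deletion cannot be told apart, and the labels give neither age, sex nor tissue for the arrayed samples. The samples are described as independent, but nothing says whether each came from its own animal, so every p-value below measures only the spread between these samples. The values are expression levels on a log2 scale after robust multiarray averaging (RMA), so a difference of 1 is a doubling. Magnetic separation enriches CD4+CD25+ cells and can leave other cells in the sample. In RNA from bulk cells, a larger number of cells of a type and more RNA per cell cannot be told apart.

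C1q is the recognition molecule of the classical complement pathway. It binds antibody complexes and dying cells, is assembled from the A, B and C chains that C1qa, C1qb and C1qc encode, and is made mainly by macrophages and some dendritic cells. Macrophages depend on signalling through the CSF1 receptor, and those of the spleen and liver clear aged red cells and return their iron to the blood, for which they use the iron exporter encoded by Slc40a1. Such genes are not part of the usual programme of T cells.

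The arrays hold no detection calls. The bacterial controls used were the 27 of 45 control probe sets named for Dap, Lys, Phe, Thr, Trpn or Bs-, designed for bacterial RNA. A level was read against the highest of these 27 on the same array. This level was 5.28, 5.06 and 5.09 on the HDAC11−/− arrays, against 5.43, 5.48 and 5.27 on the WT arrays, and was thus itself a little lower on most HDAC11−/− arrays. Array medians lay between 6.74 and 6.77, so most of these genes sat in the dim part of the array. Of the 17 probe sets, 4 were above the controls on all 6 arrays, 5 on none, and 8 on all HDAC11−/− arrays, against 4 on all WT arrays. Counted by gene, 5 genes had a probe set above the controls on all HDAC11−/− arrays, and 2 genes (Csf1r and Cd68) had one on all WT arrays. Against the second highest control instead, 6 genes had one in HDAC11−/− and 6 in WT, so this gap between the genotypes rests on the control chosen. C1qb, Mrc1 and Adgre1 were above the controls on no array, so their levels have only an upper limit and no fold change is given for them.

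**Figure D1:**
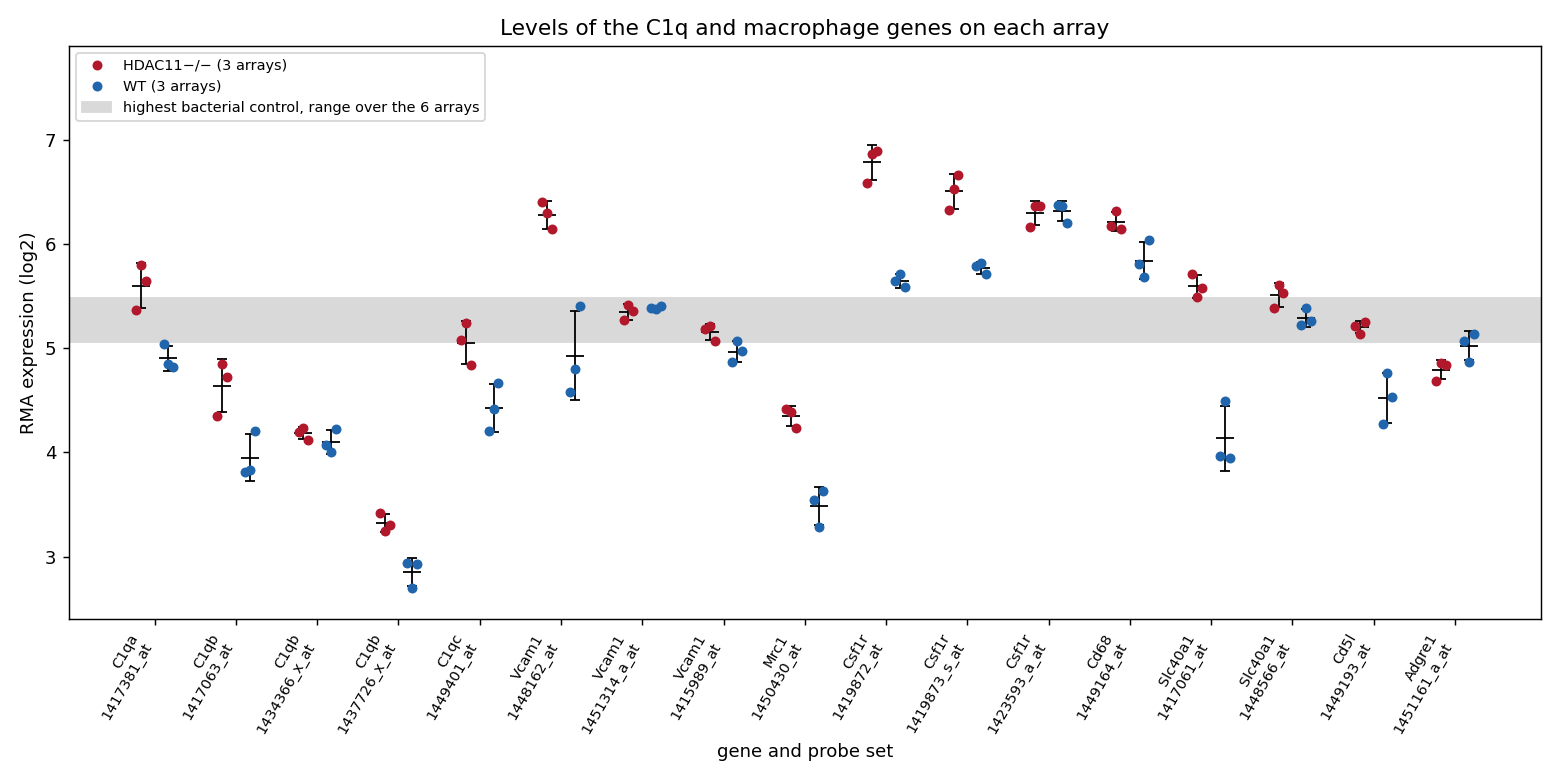
RMA expression (log2) of each probe set of the 10 genes on every array, with HDAC11−/− arrays in red left of WT arrays in blue; bars are the mean ± SD (n = 3 arrays each), and the grey band is the range of the highest bacterial control over the 6 arrays. Both groups of Csf1r and Cd68 points lie above the band, while all points of C1qb and Mrc1 lie below it.

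The 3 C1q genes lie next to each other on mouse chromosome 4, in the order C1qb, C1qc and C1qa, with no other gene between them in the RefSeq annotation. All 3 had higher signals on the HDAC11−/− arrays by their brightest probe set, and C1qa alone was above the controls on every HDAC11−/− array. RefSeq promoter sequences of mouse build GRCm38.p6 were used for 5 of the 10 genes, namely C1qb, C1qc, Mrc1, Cd68 and Cd5l. C1qa, Vcam1, Slc40a1 and Adgre1 were not matched, and Csf1r was not used here. The 250 bases before the start of C1qb and C1qc are shown because these neighbours encode chains of 1 protein. Both lie on the minus strand, at chr4:136886201-136886450 for C1qb and chr4:136892915-136893164 for C1qc, and are written 5′ to 3′. Capitals mark the letters GAGGAA, or TTCCTC on the other strand, which form the core bound by PU.1, a transcription factor that macrophages require.
C1qb promoter: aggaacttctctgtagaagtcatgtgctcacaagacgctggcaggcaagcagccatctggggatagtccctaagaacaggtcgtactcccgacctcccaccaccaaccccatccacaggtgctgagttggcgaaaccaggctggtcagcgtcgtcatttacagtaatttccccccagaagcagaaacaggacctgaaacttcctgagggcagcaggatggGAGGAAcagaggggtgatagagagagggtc
C1qc promoter: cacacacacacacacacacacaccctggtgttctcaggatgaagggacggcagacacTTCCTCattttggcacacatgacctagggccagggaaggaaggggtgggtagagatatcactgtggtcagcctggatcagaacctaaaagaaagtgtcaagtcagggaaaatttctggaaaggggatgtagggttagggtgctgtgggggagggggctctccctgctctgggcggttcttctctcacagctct
The core starts 30 bases before the C1qb start and 193 bases before the C1qc start. It is a frequent string, found on either strand in 23.3% of the 32851 RefSeq promoters cut to the same length. It was also present in the other 3 promoters, with 3 matches in Mrc1, 1 in Cd68 and 1 in Cd5l. The AP-1 letters TGANTCA (in 6.7% of all promoters) occurred only in Cd68, with 2 matches, as did the C/EBP letters TTGCNNAA (in 9.6%), with 1 match. Neither the MAF half-site TGCTGAC (in 3.8%) nor the interferon-stimulated response element core (in 3.0%) occurred in any of the 5. All 5 strings were searched on both strands. A match describes letters in a sequence, not a bound site, and the arrays measured no binding.

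By their brightest probe set, 6 of the 10 genes met the rule used for calls over all genes, an adjusted p from limma under 0.05 and a difference of at least 1.5-fold, and all 6 (C1qa, C1qb, C1qc, Vcam1, Mrc1 and Cd5l) had higher signals in HDAC11−/− Tregs. C1qb and Mrc1 among them were above the controls on no array. None of the 10 genes was called lower, by limma or by SAM. Over all 12393 genes 3.46% (429) were called higher and 3.72% (461) lower. With the arrays scaled on reference genes the calls over all genes were 300 higher and 774 lower, and 3 of the 10 genes (C1qa, Vcam1 and Mrc1) were called higher. By any probe set 8 of the 10 genes were called higher, with Csf1r and Slc40a1 added, where 5.31% of all genes were. Of the 17 probe sets 9 were called higher, against 3.87% of all probe sets. In 12 of the 17 every HDAC11−/− array lay above every WT array, which held for 28.2% of all probe sets, while in 1 the order was the opposite and in 4 the arrays overlapped. Nothing is read from these counts or from the medians that follow, because the genes were selected on this contrast. The median difference was 0.65 over the 10 genes and 0.62 over the 17 probe sets, against −0.04 over all genes and −0.03 over all probe sets.

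**Figure D2:**
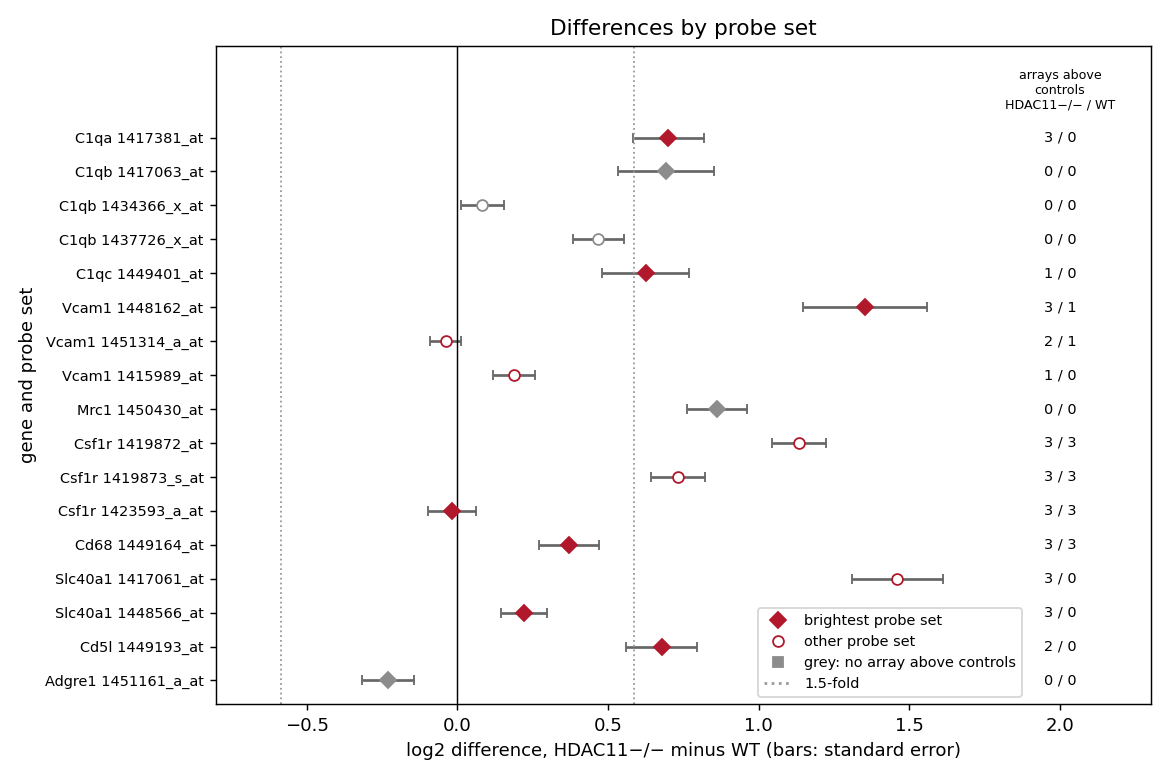
Difference in RMA expression (log2, HDAC11−/− minus WT) of each probe set with its standard error, the number of arrays above the bacterial controls at the right, and dotted lines at 1.5-fold. Measured differences run from −0.23 for Adgre1 to 1.46 for a Slc40a1 probe set whose WT arrays all lay below the controls, and the 5 grey probe sets were above the controls on no array, so their differences are of signals below the controls.

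C1qa, the gene of the C1q A chain, had log2 levels of 5.37, 5.80 and 5.64 in HDAC11−/− Tregs, against 5.04, 4.85 and 4.82 in WT Tregs. Every HDAC11−/− array was above its highest control and no WT array was, so WT holds only an upper limit. The measured means were 5.60 ± 0.22 in HDAC11−/− and 4.90 ± 0.12 in WT (SD, n = 3 each), a difference of 0.70 with a standard error of 0.12. With the WT level raised to the control of each array, C1qa was at least 1.16-fold higher in HDAC11−/− Tregs.

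C1qc, the gene of the C1q C chain, had levels of 5.08, 5.24 and 4.83 in HDAC11−/−, against 4.20, 4.42 and 4.66 in WT. The groups did not overlap, although the lowest HDAC11−/− array and the highest WT array were only a small step apart. Only HDAC11−/− replicate 2 exceeded its control. The means were 5.05 ± 0.21 in HDAC11−/− and 4.43 ± 0.23 in WT (SD, n = 3 each), a measured difference of 0.62 (SE 0.14) for which no bound above 1-fold can be given. Its call was lost without HDAC11−/− replicate 2, at 0.53, and without WT replicate 1, at 0.51.

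C1qb, the gene of the C1q B chain, has 3 probe sets, and none was above the controls on any array. Its brightest, 1417063_at, had signals of 4.35, 4.85 and 4.72 in HDAC11−/−, against 3.81, 3.83 and 4.21 in WT. The HDAC11−/− signals were all above those of WT, with means of 4.64 ± 0.26 and 3.95 ± 0.22 (SD, n = 3 each). The second, 1437726_x_at, also separated the groups, with signals of 3.42, 3.24 and 3.31 in HDAC11−/−, against 2.94, 2.69 and 2.93 in WT. The other, 1434366_x_at, did not, with means of 4.19 ± 0.06 in HDAC11−/− and 4.10 ± 0.12 in WT (SD, n = 3 each) and overlapping arrays. The suffix _x_at marks probe sets whose probes can also match other sequences, which leaves these last 2 less certain than the first.

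Slc40a1 encodes ferroportin, the iron exporter of the cell membrane, and its 2 probe sets differed in size. Probe set 1417061_at had levels of 5.71, 5.49 and 5.58 in HDAC11−/−, against 3.97, 4.49 and 3.94 in WT. The groups were far apart, with means of 5.59 ± 0.11 in HDAC11−/− and 4.13 ± 0.31 in WT (SD, n = 3 each) and a measured difference of 1.46 (SE 0.15). All HDAC11−/− arrays and no WT array were above the controls, so its size is known only as a bound, at least 1.15-fold higher in HDAC11−/−. Probe set 1448566_at, the brighter over the 6 arrays, had 5.38, 5.61 and 5.53 in HDAC11−/−, against 5.22, 5.39 and 5.26 in WT. Here the lowest HDAC11−/− array and the highest WT array overlapped, the difference was 0.22 (SE 0.08), and the bound was at least 1.08-fold.

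Vcam1, an adhesion molecule for integrins that splenic and bone marrow macrophages carry along with endothelial and stromal cells, has 3 probe sets. Probe set 1448162_at had levels of 6.41, 6.29 and 6.14 in HDAC11−/−, against 4.58, 4.80 and 5.41 in WT. The HDAC11−/− arrays were close together and the WT arrays were spread, with WT replicate 3 well above the other WT arrays and the only WT array above its control. The means were 6.28 ± 0.13 in HDAC11−/− and 4.93 ± 0.43 in WT (SD, n = 3 each), a measured difference of 1.35 (SE 0.21). Since 2 of the 3 WT arrays lay below their controls, no fold is given. Leaving out 1 array at a time gave 1.18 without WT replicate 1 and 1.59 without WT replicate 3, the lowest and highest values.

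The other 2 Vcam1 probe sets did not show a difference of this size. Probe set 1415989_at had 5.18, 5.22 and 5.07 in HDAC11−/−, against 4.86, 5.07 and 4.97 in WT. The lowest HDAC11−/− value barely exceeded the highest WT value, and the difference was 0.19 (SE 0.07). Probe set 1451314_a_at had 5.27, 5.42 and 5.36 in HDAC11−/−, against 5.38, 5.38 and 5.40 in WT, and its groups overlapped with a difference of −0.04 (SE 0.05).

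Csf1r encodes the receptor for CSF1 and IL-34, on which most macrophages depend, and its 3 probe sets were all above the controls on all 6 arrays. Probe set 1419872_at had levels of 6.59, 6.86 and 6.90 in HDAC11−/−, against 5.65, 5.72 and 5.58 in WT. The groups were far apart relative to their spread, with means of 6.78 ± 0.17 in HDAC11−/− and 5.65 ± 0.07 in WT (SD, n = 3 each), a difference of 1.13 (SE 0.09) or 2.19-fold. Probe set 1419873_s_at had 6.32, 6.53 and 6.66 in HDAC11−/−, against 5.79, 5.82 and 5.71 in WT, a difference of 0.73 (SE 0.09) or 1.66-fold.

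The brightest Csf1r probe set, 1423593_a_at, showed no such separation. Its levels were 6.16, 6.37 and 6.36 in HDAC11−/−, against 6.38, 6.37 and 6.21 in WT, a difference of −0.02 (SE 0.08). The arrays overlapped fully, so the answer for Csf1r depends on the probe set read. The suffix _a_at marks a probe set that recognises several transcripts of 1 gene and _s_at one whose probes are shared by several transcripts. No source used here states which parts of the Csf1r transcripts the probe sets cover.

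Each of the 4 genes with several probe sets (C1qb, Vcam1, Csf1r and Slc40a1) had at least 1 called and at least 1 uncalled probe set. In none of them was a probe set called lower. Reading a gene by its brightest probe set therefore called C1qb and Vcam1 and left out Csf1r and Slc40a1. Between probe sets of 1 gene only the differences are compared here, since their levels depend on the probes.

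Cd68 encodes a lysosomal glycoprotein abundant in macrophages and was the gene that, with Csf1r, was above the controls on all 6 arrays. Its levels were 6.17, 6.32 and 6.15 in HDAC11−/−, against 5.80, 5.68 and 6.04 in WT. The groups did not overlap, with means of 6.21 ± 0.09 in HDAC11−/− and 5.84 ± 0.18 in WT (SD, n = 3 each), but the difference of 0.37 (SE 0.10), or 1.29-fold, stayed under the 1.5-fold needed for a call.

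Cd5l encodes a secreted scavenger receptor protein of tissue macrophages, also known as AIM. Its levels were 5.21, 5.14 and 5.25 in HDAC11−/−, against 4.28, 4.76 and 4.53 in WT. On the HDAC11−/− side 2 of 3 arrays were above the controls, and on the WT side none. The means were 5.20 ± 0.06 in HDAC11−/− and 4.52 ± 0.24 in WT (SD, n = 3 each), a measured difference of 0.68 (SE 0.12) that supports no bound above 1-fold, and the call was lost without WT replicate 1, at 0.56.

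Mrc1 encodes the mannose receptor CD206, an endocytic receptor of tissue macrophages and some endothelial cells. Its signals were 4.42, 4.39 and 4.24 in HDAC11−/−, against 3.54, 3.28 and 3.63 in WT. The groups were well separated, with means of 4.35 ± 0.10 in HDAC11−/− and 3.48 ± 0.18 in WT (SD, n = 3 each), yet all 6 signals lay below the controls.

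Adgre1 encodes the surface receptor most used to identify mouse macrophages, and was the exception among the 10 genes. Its signals were 4.69, 4.86 and 4.83 in HDAC11−/−, against 5.07, 4.87 and 5.14 in WT. All HDAC11−/− signals were below all WT signals, with means of 4.79 ± 0.09 in HDAC11−/− and 5.02 ± 0.14 in WT (SD, n = 3 each), and no array was above its control.

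Within a genotype the 17 probe sets did not all follow 1 array. HDAC11−/− replicate 2 was the highest of its group in 10 probe sets, and HDAC11−/− replicate 1 the lowest in 8. In WT, replicate 3 was the highest in 8. The mean level over the 10 genes was 5.32, 5.49 and 5.37 in HDAC11−/−, against 4.79, 4.82 and 4.99 in WT.

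How often dim signals were called on these arrays gives the setting for the values below the controls. Of all probe sets, 6780 (30.0%) were at or below the highest control on all 6 arrays, and 32 of them (0.472%) were called higher and 83 (1.22%) lower. In 4.58% of this class every HDAC11−/− array was above every WT array, against 40.8% of the 14100 probe sets above the controls on all 6 arrays. The class of dim probe sets holds 5 of the 17, of which 2 (C1qb 1417063_at and Mrc1) were called higher. Of the probe sets above the controls on all 6 arrays, 5.07% were called higher, and that class holds 2 called ones, both of Csf1r. A further 185 probe sets were above the controls on all HDAC11−/− arrays and no WT array, of which 39.5% were called higher and 75.7% had every HDAC11−/− array above every WT array. This class is itself defined by a difference between the genotypes. It holds 3 of the 17, C1qa and both of Slc40a1.

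**Figure D3:**
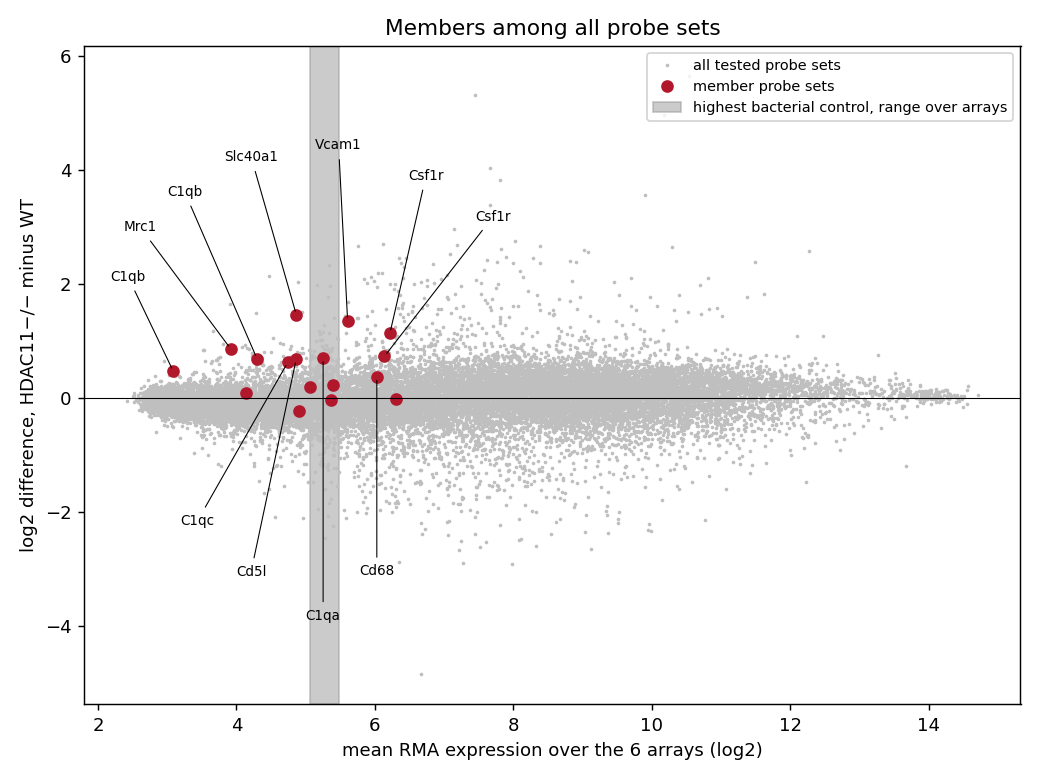
Difference in RMA expression (log2, HDAC11−/− minus WT) against the mean level over the 6 arrays (log2), with all 22626 tested probe sets in grey, the 17 probe sets of the 10 genes in red and the range of the highest bacterial control as a band. The red points lie in or near the dim left part of the cloud, at mean levels below 7, and 14 of the 17 are above 0.

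Other macrophage and monocyte markers were called in both directions. Of 36 measured, 3 were called higher and 2 lower in HDAC11−/− Tregs, where 3.46% of all genes were called higher and 3.72% lower. The median difference of these markers was −0.03 against −0.04 over all genes. In 10 of the 36 the HDAC11−/− arrays were all above the WT arrays, in 10 all below, and in 16 they overlapped. Over all genes the arrays were all above in 28.2% and all below in 29.6%, close to the shares of these markers. Their mean level was 5.55 to 5.60 on the HDAC11−/− arrays, against 5.53 to 5.59 on the WT arrays. Of these markers 15 were above the controls on no array, among them the defining Itgam (CD11b), Cd14, Mertk, Fcgr1, Cd163 and Vsig4. Another 12 were above the controls on all 6 arrays. By limma's adjusted p alone, 10 of the 36 were higher and 7 lower, where 22.9% of all genes were higher and 23.2% lower.

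The 3 called higher were Lgmn, Lyz1 and Hpgd. Lgmn, a lysosomal protease, had levels of 7.36, 7.53 and 7.55 in HDAC11−/−, against 6.23, 6.19 and 6.05 in WT, a difference of 1.32 (SE 0.07, limma adjusted p = 4.77e-05). Lyz1, a lysozyme gene, had 6.43, 6.11 and 6.14 in HDAC11−/−, against 5.17, 5.28 and 5.40 in WT (0.94, SE 0.10, limma adjusted p = 0.000609). Of the WT arrays, 1 of 3 was above the controls. This probe set and a dimmer called one carry the less certain suffix _x_at. The Lyz1 probe set without that suffix was not called, and its arrays overlapped. Its means were 3.47 ± 0.07 in HDAC11−/− and 3.48 ± 0.16 in WT (SD, n = 3 each), and no array was above the controls. The call of Lyz1 is therefore not shown to be specific to this gene. The near-identical neighbour of Lyz1, Lyz2, the main lysozyme of macrophages, shares much of its sequence, so the signals of the pair may be mixed. Lyz2 was not called, and was at least 1.12-fold higher in HDAC11−/−. Hpgd, a prostaglandin-degrading enzyme, was called below the controls (limma adjusted p = 0.00201), so no fold is given.

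The 2 called lower were the signalling adaptors Fcer1g (−1.32, SE 0.06, limma adjusted p = 1.64e-05) and Tyrobp (−0.82, SE 0.09, limma adjusted p = 0.000622), which macrophages share with other leukocytes. Both were above the controls on all 6 arrays. Cx3cr1, Ms4a7 and Clec4f were each above the controls on at most 1 array per genotype, and Siglec1, the sialoadhesin of splenic and lymph node macrophages, differed by 0.01 (SE 0.08).

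Of 31 other complement components, regulators and receptors, none was called higher and 1 lower by the brightest probe set, near the 3.46% and 3.72% of all genes, with a median of −0.13. SAM gave the same counts. By limma's adjusted p alone, without the fold threshold, 3 were higher and 9 lower, where 22.9% of all genes were higher and 23.2% lower. By its unadjusted p under 0.05, 4 were higher and 12 lower, where 25.8% of all genes were higher and 28.1% lower. The one called lower, Cr2, a complement receptor of B cells and follicular dendritic cells, had 4.31, 4.54 and 4.67 in HDAC11−/−, against 5.27, 5.32 and 5.33 in WT (limma adjusted p = 0.000768), and only 1 WT array was above its control, so no fold is given. C1ra and C1s1, the proteases that join C1q in the C1 complex, were above the controls on no array. Cfp (properdin, −0.54) and C2 (−0.40), of the alternative and classical pathways, were above the controls on all arrays and were not called, and the lectin Fcna differed by 0.54 (SE 0.16) without a call. The brightest probe set of C1qbp, a mitochondrial protein named for binding C1q, differed by 0.13 (SE 0.05) and was not called, while its dimmer one was called higher (0.60, SE 0.05, limma adjusted p = 0.000241). Both were above the controls on all 6 arrays.

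None of 26 other iron and haem handling genes was called by its brightest probe set, as Slc40a1 was not by its own, and their median was 0.07. SAM called none either. By limma's adjusted p alone 8 were higher and 2 lower, and by its unadjusted p under 0.05, 10 and 3, to be read against the shares of all genes just given. Pcbp1, an iron chaperone, had the smallest adjusted p with a difference of 0.35 (SE 0.04, limma adjusted p = 0.00111). Hmox1, the haem-degrading enzyme of red pulp macrophages, had levels of 5.68, 5.92 and 5.81 in HDAC11−/−, against 5.59, 5.64 and 5.59 in WT and was not called (0.19, SE 0.07).

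Of 28 genes of apoptotic cell uptake, a process in which C1q is a known bridge to the phagocyte, none was called higher and 3 lower by limma or by SAM, with a median of −0.11. Over all genes limma called 3.46% higher and 3.72% lower. At limma's unadjusted p under 0.05, 3 were higher and 8 lower, where 25.8% of all genes were higher and 28.1% lower. The 3 called lower were Tyrobp, the lipid transporter Abca7 (−0.61, SE 0.05, limma adjusted p = 0.000297) and the scavenger receptor Stab2 (limma adjusted p = 0.00519), for which only 1 WT array and no HDAC11−/− array was above its control. The call of Abca7 was lost without HDAC11−/− replicate 2 (−0.57) and on the scale of the bacterial controls (−0.58), and that of Stab2 without WT replicate 3 (−0.52).

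Among 24 measured myeloid transcription factors and genes of the CSF cytokine axis, 2 were called higher and 1 lower, with a median of −0.07. Over all genes 3.46% were called higher and 3.72% lower. Cebpb had 9.59, 9.64 and 9.57 in HDAC11−/−, against 8.46, 8.48 and 8.36 in WT (1.17, SE 0.05, limma adjusted p = 1.92e-05), and Cebpa had a difference of 0.79 (SE 0.06, limma adjusted p = 0.000127). Both encode C/EBP factors, which act in myeloid cells and in other lineages. Maf, a factor of macrophages and T cells, was lower (−0.76, SE 0.09, limma adjusted p = 0.000717). Spi1, the gene of PU.1, had 5.64, 5.82 and 5.86 in HDAC11−/−, against 6.06, 5.70 and 6.13 in WT, with overlapping groups. Spic, the factor of red pulp macrophages, was above the controls on no array. Csf1, the ligand of the Csf1r receptor, differed by −0.36 (SE 0.08) and was not called.

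**Figure D4:**
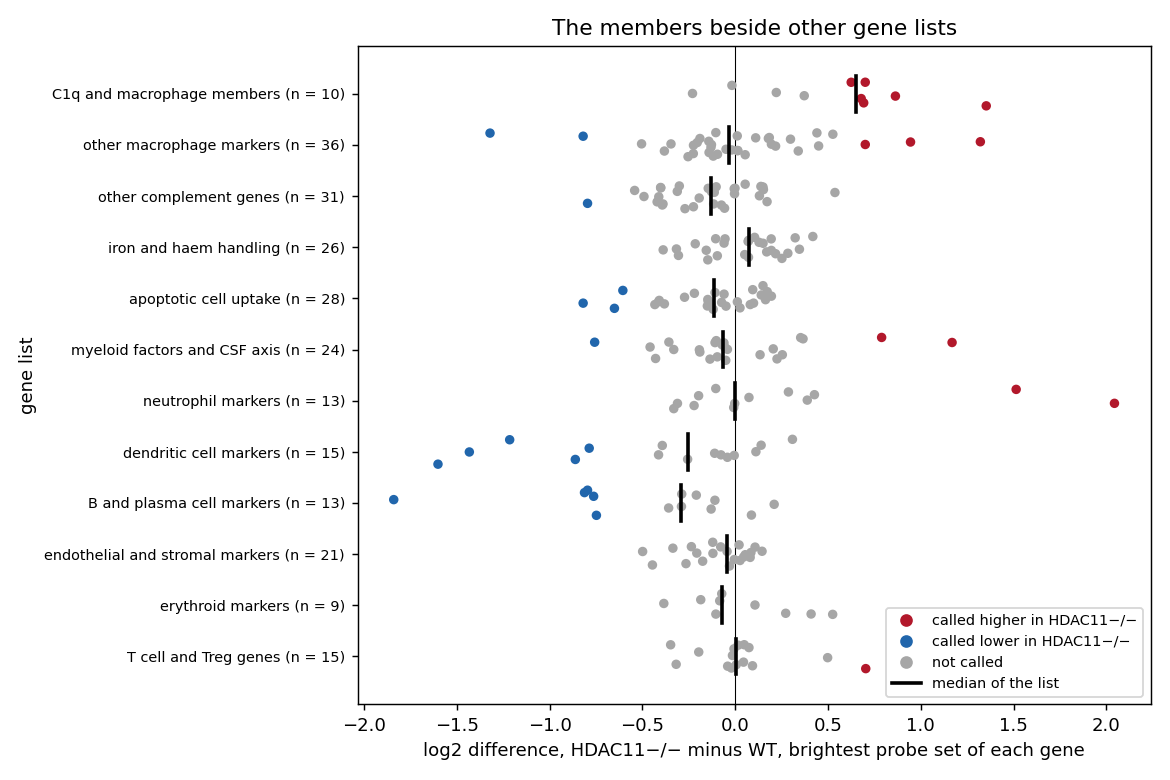
Difference in RMA expression (log2, HDAC11−/− minus WT) by the brightest probe set of each gene, 1 point per gene, for the 10 genes and for lists of related genes and of markers of other cell types, with vertical bars at each list's median and colours for calls. The 10 genes were chosen with this contrast known, so nothing is read from their median of 0.65. It includes C1qb, Mrc1 and Adgre1, which were above the controls on no array. The medians of all other lists lie between −0.29 and 0.07.

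Markers of other cell types were read on the same arrays, and their part in the values above was not tested. Over all genes, 3.46% were called higher and 3.72% lower. At limma's unadjusted p under 0.05, 25.8% of all genes were higher and 28.1% lower. Of 13 neutrophil markers 2 were called higher, S100a8, at least 1.44-fold (limma adjusted p = 3.32e-05), and S100a9, at least 1.25-fold (limma adjusted p = 4.68e-05). The mean level of that list was 4.90 to 4.92 on HDAC11−/− arrays, against 4.58 to 4.68 on WT arrays. Its median difference was −0.003, and at limma's unadjusted p under 0.05, 5 were higher and 4 lower. Of its markers 6, Mpo and Cxcr2 among them, were above the controls on no array. Of 15 dendritic cell markers 5 were called lower and none higher by limma (1 higher at an unadjusted p under 0.05), with a mean level of 7.86 to 7.87 in HDAC11−/−, against 8.29 to 8.32 in WT. They were H2-Aa (−1.60), H2-Ab1 (−1.43), H2-Eb1 (−1.22) and Cd74 (−0.79), all of class II antigen presentation, and the factor Batf3 (−0.86). Of 13 B and plasma cell markers 5 were called lower and none higher by limma at the brightest probe set (1 higher and 9 lower at an unadjusted p under 0.05). By any probe set 6 were called lower and 1 higher, where 825 and 658 of all 12393 genes were. Ms4a1, the gene of CD20 (−1.84, SE 0.09, limma adjusted p = 2.73e-05), led the calls. Sdc1 (limma adjusted p = 0.000272), Cd79a (limma adjusted p = 0.000639) and Cr2 came next. The list mean was 6.60 to 6.67 in HDAC11−/−, against 7.08 to 7.13 in WT.

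None of 21 endothelial and stromal markers, which include cells that express Vcam1, was called by limma at the brightest probe set. By any probe set 0 were called higher and 1 lower, where 658 and 825 of all 12393 genes were. The mean level of the list was 4.92 to 4.97 in HDAC11−/−, against 5.03 to 5.07 in WT. Of the list, 1 was higher and 5 lower at limma's unadjusted p under 0.05. At that unadjusted p, 25.8% of all genes were higher and 28.1% lower. The smallest adjusted p of the list was that of Pdgfrb (limma adjusted p = 0.00078), with 1 WT array and no HDAC11−/− array above its control. None of 9 erythroid markers was called by limma either (2 higher and 2 lower at an unadjusted p under 0.05), with a mean level of 5.13 to 5.25 in HDAC11−/−, against 5.10 to 5.14 in WT, and Gata1 had the smallest adjusted p (0.41, SE 0.05, limma adjusted p = 0.00107). Of 15 T cell and Treg genes, only Trat1 was called by the brightest probe set (0.70, SE 0.08, limma adjusted p = 0.000665). By any probe set 1 was called higher and 2 lower, and at limma's unadjusted p under 0.05, 2 were higher and 3 lower. The list mean was 10.90 to 10.94 in HDAC11−/−, against 10.89 on each WT array.

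The labelled CD4+CD25+ T cells were borne out by Cd3e, Cd4 and Il2ra (CD25), whose brightest probe sets lay at log2 levels of 10.20 or more on all 6 arrays. The probe set of Foxp3, the factor that defines Tregs, was above the controls on none, so the Treg label was not borne out by it. The other 14 measured T cell and Treg genes, Ctla4, Ikzf2 and Tnfrsf18 among them, were above the controls on all 6 arrays. Hdac11 did not separate the genotypes. Its brighter probe set had levels of 6.36, 6.28 and 6.22 in HDAC11−/−, against 6.31, 6.37 and 6.53 in WT (−0.12, SE 0.07, limma adjusted p = 0.222). The second had 5.35, 5.41 and 5.79 in HDAC11−/−, against 5.69, 5.49 and 5.68 in WT. No source used here places these probes inside or outside the floxed segment, so they do not check the labels, and directions are those of the genotype labels.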

How the data were processed

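The authors hybridised amplified, biotin-labelled RNA to Affymetrix Mouse430A arrays, normalized the arrays with RMA in their MAYDAY software and deposited the resulting log2 values, which were used as given. RMA forces the arrays to 1 distribution, so a shift of most genes together would not be seen. No raw probe values were used, and no column of the deposited table was left unused (0). The 45 control probe sets were left out of the tests. Of the other 22626, the platform annotation gives 1 gene symbol to 20380, several to 691 and none here to 1555.

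A linear model with genotype alone was fitted to all tested probe sets together (limma 3.58.1, R 4.3.3), and Benjamini-Hochberg adjustment ran over the whole table. Calls followed the study's thresholds of 0.05 for the adjusted p and 1.5 for the fold. Genes were read by their brightest probe set, judged by the mean of the 6 arrays. Where 1 genotype had no array above the highest bacterial control, a bound was computed with the dim group's value on each array raised to that control. The number of arrays limits the precision.

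The genes and all lists were chosen with earlier results of these data known. Named are all 10 genes with every probe set, Hdac11, Foxp3, Il2ra, Cd4 and Cd3e, and in each list up to 4 called genes per direction with the smallest adjusted p or, with no call, the gene with the smallest. The called dendritic cell marker Cd74 was named in addition to these. Uncalled genes with a defining role, and Lyz2, were named after their values were seen. The lists cover other macrophage markers, complement, iron, apoptotic cell uptake, myeloid factors, and neutrophil, dendritic, B and plasma, endothelial and stromal, erythroid and T cell markers. Alternatives were SAM (the methods' test, written out from its definition), a replicate block, an intensity trend, array weights, scaling on 27 bacterial controls or on 12 reference genes, a filter to probe sets above the controls on at least 3 arrays, other thresholds, any probe set, other detection levels, and leaving out each array. Promoter sequences came from RefSeq (GRCm38.p6). Figures were drawn with matplotlib 3.10.9.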

Additional observations from a re-analysis of the deposited data

How the results depend on the processing

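No called probe set of the 10 genes, and none of the up to 4 called genes per list and direction, changed direction in any alternative limma fit. The direction of other called genes was not followed. With arrays scaled on reference genes, which moved all genes by −0.114, the genes of the 10 called higher numbered 3 in place of 6, C1qb, C1qc and Cd5l being lost, the other complement genes called lower 3 in place of 1, and all genes called lower 774 in place of 461. With dim probe sets filtered out, which kept 9 of the 17 probe sets in the test, 2 of the 10 genes (C1qa and Vcam1) were called higher and 0 complement genes lower. C1qa, Vcam1 1448162_at, both called Csf1r probe sets and Slc40a1 1417061_at were called in the reported fit and all 13 alternative fits at 1.5-fold. At 2-fold or more, C1qa (0.70) and Csf1r 1419873_s_at (0.73) were not called. C1qa and Slc40a1 1417061_at passed the filter on dim probe sets only through the HDAC11−/− arrays, where they are high. Vcam1 1448162_at had 1 WT array above its control, so it too needed the HDAC11−/− arrays to reach 3. That setting therefore says nothing of the stability of these probe sets. Without a fold threshold, calls higher and lower were 10 and 7 for other macrophage markers, 3 and 9 for complement, 8 and 2 for iron, 3 and 8 for apoptotic cell uptake, 4 and 4 for myeloid factors, and 2837 and 2869 for all genes. At 2-fold or more they were 1 higher for the 10 genes, 1 and 1 for macrophage markers, 0 lower for complement and for uptake, 1 and 0 for myeloid factors, and 152 and 111 for all genes. By any probe set they were 1 higher for complement and for uptake, 3 lower for myeloid factors, and 658 and 825 for all genes. Leaving out 1 array gave 0 to 1 complement genes called higher, the 1 appearing without WT replicate 2 or WT replicate 3.

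Against the mean plus 2 SD of the controls, 8 genes in HDAC11−/− and 6 in WT were above them, and against the second highest control 6 were in each genotype, in place of 5 in HDAC11−/− and 2 in WT. Deviations of same-numbered arrays correlated at r = 0.23, −0.0187 and 0.163. As 1 pair did not exceed 0.1, the numbers were not taken as a pairing. With the replicate block 6 of the 10 genes, 430 genes higher and 462 lower were called. The causes of these shifts were not tested. Signal over the controls limits C1qb, Mrc1 and Adgre1 most.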
